A study of Mus musculus with 34 samples.

Results

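Nkx2-5, Isl1, Hand1, Hand2, Gata5, Gata6, Tbx20, Myocd, Mef2a and Mef2d are the heart's own core transcription factors, and none of them is carried by the virus used here to turn fibroblasts into cardiomyocyte-like cells. They were taken by symbol from the gene names of the array. All 10 were present, of 22804 named genes on the array, and all 10 passed the brightness filter that left 19413 genes for testing. The question their values bear on is how far this endogenous network is expressed after direct reprogramming and after differentiation of induced pluripotent stem cells (iPSC), compared with cardiomyocytes of the newborn heart.

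RNA came from 34 samples of mouse cells of strain CD1 carrying aMHC-GFP, a reporter driven by the promoter of the cardiac myosin gene Myh6, in 17 groups with 2 arrays each. Induced cardiomyocytes (iCM) were taken 4 weeks after cardiac fibroblasts received a retrovirus encoding Mef2c, Gata4 and Tbx5 on a single transcript. The iPSC lines were made from cardiac fibroblasts with Oct4, Sox2, Klf4 and cMyc, and their cardiomyocytes were taken on day 13 for the first line (iPSC1-CM D13) and on days 29 and 9 for the second (iPSC2-CM D29 and iPSC2-CM D9). Contractile iCM and iPSC-derived cells shared a medium with added ascorbic acid, VEGF, bFGF and FGF10. In a time course, fibroblasts were sampled 3, 5, 7, 10 and 14 days after the virus with Mef2c, Gata4 and Tbx5 (MGT) or after a LacZ control virus, with uninfected day-0 fibroblasts (CF D0) as the start. Cardiomyocytes (neoCM) and cardiac fibroblasts (neoCF) freshly isolated from pups at postnatal day 1.5 were the primary cells. No sorting is stated, nor whether both arrays of a group came from separate cultures, so p-values measure only the spread between these samples.

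In the embryonic heart Nkx2-5, GATA, T-box, HAND and MEF2 proteins bind DNA together and activate each other and the genes of the contractile machinery. Isl1 marks the progenitors of the second heart field and is shut off as they differentiate, while Myocd is a coactivator that works through serum response factor in cardiac and smooth muscle. Forced Mef2c, Gata4 and Tbx5 are used to start this network in fibroblasts from outside.

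A level below is the log2 fluorescence of a gene's brightest probe minus the 75th percentile of that array. Between 28715 and 44881 of 59305 spots were well above background on each array. Levels of different genes come from different probes and were not compared. A gene was called changed at an adjusted p under 0.05 (limma over all 34 arrays, Benjamini-Hochberg over 19413 genes) and a difference of at least 2-fold, and errors after ± are limma standard errors of a difference. The median difference over all tested genes lay between -0.23 and 0.11 in every comparison made. The arms of the time course shared slides on days 3 to 10 and the iPSC-derived groups shared one, as did LacZ D14 and CF D0. Of the comparisons made otherwise, iCM against neoCM shared a slide through neoCM replicate 2, and in those whose sides share no slide, slide and group cannot be told apart. Array number limits the precision, and in whole cultures fewer expressing cells and less RNA per cell cannot be told apart.

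2 groups held arrays that stood apart. The iPSC2-CM D29 arrays correlated at r = 0.895 across genes, with 8217 genes at least 2-fold apart, and the median level of 10 fibroblast markers was 4.03 on the first and -2.28 on the second. Endoderm and liver markers (7 tested) had a median level of 1.51 on the first of these arrays and -7.20 on the second. LacZ D14 replicate 2 was the dimmest array, with a 75th percentile of 729 fluorescence units and 2490 genes at least 2-fold from its partner. Cardiomyocyte markers were well above background for 8 of 8 genes on every iCM, iPSC-derived and neoCM array. Fibroblast markers were well above background for 10 of 10 genes on both neoCM arrays too, with median levels of 5.18 and 5.16, against 6.49 and 6.74 on the neoCF arrays.

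The probes are shown where a result turns on what they read. Nkx2-5 has the largest difference between iCM and neoCM, Myocd is the member called between MGT and LacZ cultures on days 5 and 7, the 3 Tbx20 probes and the 2 Mef2a probes disagree with each other, and the Gata5 probe resembles sequence elsewhere. Each probe has 60 bases, placed on build mm9 by the array files, and a stretch of 30 bases is printed 5′ to 3′.
Nkx2-5 (chr17:26975621-26975680, minus strand): acccgtatttatgtttttacctgttgtaag
Myocd (chr11:64991930-64991989, minus strand): taatctgaattcccctatggatctccactt
Tbx20 probe 1 (chr9:24527750-24527809, minus strand): gtagttggtttccagacaaaatacagatgt
Tbx20 probe 2 (chr9:24544715-24544774, minus strand): ggggacctttgaagaactgatgtgaaagaa
Tbx20 probe 3 (chr9:24563177-24563236, minus strand): aggacgttcatctttccagagacagttttc
Mef2a probe 1 (chr7:74379575-74379634, minus strand): atgttggtgtgagtgtgtgtgtatgtgtgg
Mef2a probe 2 (chr7:74378751-74378810, minus strand): ttttttaaagaatagctttatcttgtttta
Gata5 (chr2:180059867-180059926, minus strand): tgtagctctggctgtcctggaactcattat
No probe of a member shared 20 bases with a probe of another gene. The Gata5 probe shared 16 bases in a row with 47 of 32851 RefSeq promoter windows of other genes (0.143%), and Mef2a probe 1 with 29 (0.0883%). The other members' probes shared them with 0 to 2 windows. Among 2785 probes sampled across the array, 0.503% matched as many windows as the Gata5 probe and 0.682% as many as Mef2a probe 1. Gata5 had no other probe, and whether its signal includes RNA other than Gata5 was not tested. This limit holds for every Gata5 difference below.

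The freshly isolated cells showed what the network looks like in newborn cardiomyocytes. In neoCM, 5 of 10 members were higher than in neoCF and none was lower, against 15.5% of all tested genes called higher and 16.1% called lower (31.6% in all). Their median difference was 1.07 on the log2 scale, against -0.04 for all genes. Nkx2-5, the homeodomain factor of cardiac commitment, reached levels of 4.94 and 4.75 in neoCM, against -0.99 and -1.61 in neoCF. That difference, 6.14 ± 0.57 (adjusted p = 4.0e-08, limma), was 70.7-fold.

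Hand1 and Myocd followed the same order. Hand1, a basic helix-loop-helix factor of the left ventricle, had levels of -1.74 and -2.13 in neoCM, against -5.89 and -7.25 in neoCF, where only the first array was well above background (4.63 ± 0.88, adjusted p = 2.2e-04, limma). Myocd had levels of 2.74 and 2.51 in neoCM, against -1.13 and -0.79 in neoCF (3.59 ± 0.42, adjusted p = 8.8e-07, limma). For each gene both neoCM arrays lay above both neoCF arrays.

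The GATA factors differed less. Gata5, which acts in endocardium and early myocardium, had levels of 0.70 and 0.71 in neoCM, against -1.0 and -1.24 in neoCF (1.83 ± 0.32). Gata6, a partner of Gata4 in heart muscle, had levels of 4.71 and 4.67 in neoCM, against 3.62 and 3.46 in neoCF (1.15 ± 0.15), a difference that fell to 0.96 with normexp background correction and 0.99 in the authors' log2 values, below 2-fold. Hand2 (1.0 ± 0.62), Isl1 (0.62 ± 0.60), Tbx20 (0.33 ± 0.18), Mef2a (-0.71 ± 0.42) and Mef2d (0.76 ± 0.15) were not called. A second Tbx20 probe had the opposite sign (-0.60 ± 0.19, not called), and the second Mef2d probe was called higher (1.37 ± 0.32).

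Against the day-0 fibroblasts of the time course, 6 members were higher in neoCM and 1 was lower (22.6% of all genes were called higher and 22.6% lower, 45.2% in all). Nkx2-5 was 291-fold and Myocd 55.2-fold higher in neoCM. Tbx20, a T-box factor needed in the growing chamber, was called here (1.43 ± 0.18), with levels of 4.33 and 3.78 in neoCM, against 2.62 and 2.64 in CF D0. By its brightest probe Mef2a was the member that was lower, at 1.16 and 1.41 in neoCM, against 3.66 and 3.59 in CF D0. Its second probe gave -0.91 ± 0.24, under 2-fold and not called. Isl1 was not well above background on either CF D0 array and was at least 2.02-fold higher in neoCM, a call that was lost with normexp (0.80, adjusted p = 0.13, limma). Hand1 was not called, and CF D0 had levels of -2.47 and -2.64, well above background and far from the -5.89 and -7.25 of neoCF.

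**Figure D1:**
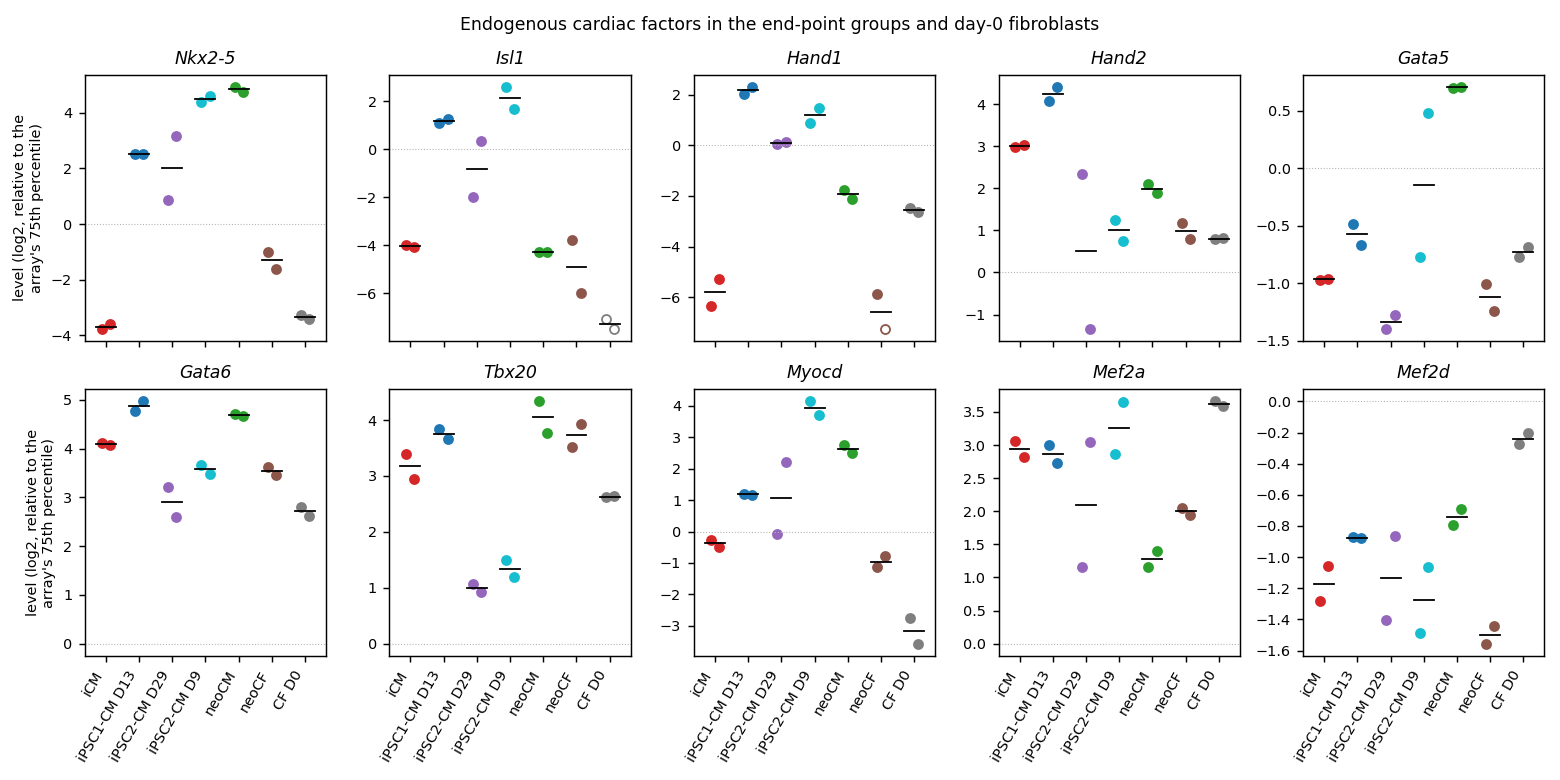
Levels of the 10 factors on each array of the end-point groups and day-0 fibroblasts (log2, relative to the array's 75th percentile, with an own scale for each gene). Each point is an array, open points are not well above background, and bars are means of 2 arrays. Nkx2-5 in iCM lies at -3.77 and -3.60, below every iPSC-derived and neoCM array.

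After 4 weeks of direct reprogramming the members differed widely in how near they lay to neoCM. In iCM, 4 of 10 members were lower than in neoCM and 1 was higher (20.9% of all genes were called lower and 18% higher, 38.9% in all). The 1 was Mef2a by its brightest probe, and its second probe gave -0.80 ± 0.24 and was not called, so no direction is given for Mef2a. The median difference of the members was -0.74, against -0.06 for all genes. Nkx2-5 gave the largest difference of any member, with levels of -3.77 and -3.60 in iCM, against 4.94 and 4.75 in neoCM (-8.53 ± 0.57, adjusted p = 2.5e-10, limma), or 370-fold lower in iCM. Within the slide that held both iCM arrays and neoCM replicate 2, the difference was -8.43.

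Hand1, Myocd and Gata5 were the other members lower in iCM. Hand1 had levels of -6.35 and -5.26 in iCM, against -1.74 and -2.13 in neoCM (-3.86 ± 0.88). Myocd had levels of -0.26 and -0.49 in iCM, against 2.74 and 2.51 in neoCM (-3.0 ± 0.42, adjusted p = 5.7e-06, limma). Gata5 had levels of -0.97 and -0.96 in iCM, against 0.70 and 0.71 in neoCM (-1.67 ± 0.32), and within the shared slide these 3 differences were -3.67, -2.89 and -1.67.

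Gata6, Hand2 and Isl1 were not called lower in iCM. Gata6 had levels of 4.12 and 4.08 in iCM, against 4.71 and 4.67 in neoCM, a difference of -0.59 ± 0.15 (adjusted p = 0.00195, limma) that was under 2-fold. Hand2, the right ventricular counterpart of Hand1, had levels of 2.99 and 3.02 in iCM, against 2.10 and 1.89 in neoCM. Its difference of 1.01 ± 0.62 was called (adjusted p = 1.4e-05, limma) once the iPSC2-CM D29 arrays, which differ by over 3 log2 units for Hand2 (2.34 and -1.34), were left out of the fit. Isl1 differed by 0.25 (95% interval -1.0 to 1.51), with levels of -3.98 and -4.07 in iCM, against -4.28 and -4.27 in neoCM.

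The iCM were also set against fibroblasts. Compared with neoCF, Hand2 was higher in iCM (2.02 ± 0.62, adjusted p = 0.0091, limma), at 2.99 and 3.02 in iCM, against 1.18 and 0.79 in neoCF. Without neoCF replicate 2 this call was lost (1.82, adjusted p = 0.061, limma). Nkx2-5 was lower in iCM, at -3.77 and -3.60, against -0.99 and -1.61 in neoCF (-2.39 ± 0.57, adjusted p = 0.0014, limma). These were 2 of 10 members, where 16.9% of all genes were called higher and 20.1% lower (37% in all). Without neoCF replicate 1, Isl1 was also called higher in iCM (1.98, adjusted p = 0.011, limma), where the neoCF arrays lay at -3.78 and -6.01.

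Markers of other cells also differed between these cultures. The median level of 6 macrophage markers was 3.35 and 3.33 in iCM, against 2.61 and 2.07 in neoCF and -2.08 and -1.97 in neoCM, with 6 of 6 called higher in iCM than in neoCM and 1 of 6 higher than in neoCF. Endothelial markers were lower in iCM for 5 of 6 genes against neoCF (median difference -5.52) and for 4 of 6 against neoCM (-1.94). The 8 cardiomyocyte markers were well above background on all neoCF arrays. The part of these cells in the Nkx2-5 and Hand2 differences between iCM and neoCF was not tested.

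Compared with CF D0, 4 members were higher and 1 was lower in iCM (18.9% of all genes were called higher and 21.6% lower, 40.5% in all). Myocd rose in iCM, at -0.26 and -0.49, against -2.75 and -3.57 in CF D0 (2.78 ± 0.42, adjusted p = 1.3e-05, limma). Gata6 (1.38 ± 0.15) and Hand2 (2.20 ± 0.62) were also higher, and Isl1 was at least 2.41-fold higher. Hand1 was lower (-3.24 ± 0.88). Mef2a was not called by its brightest probe (-0.69 ± 0.42), but its second probe was called lower (-1.71 ± 0.24). Nkx2-5 differed by -0.35 (95% interval -1.54 to 0.85), so a rise of over 2-fold over CF D0 lay outside its interval. CF D0 is the start of the time course, whereas the iCM are labelled as derived from neoCF.

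Against the LacZ control on day 14, Gata6 (1.57 ± 0.15), Isl1 (at least 1.61-fold) and Hand2 (1.73 ± 0.62) were higher in iCM and Gata5 was lower (-1.62 ± 0.32), 4 of 10 members, where 10% of all genes were called higher and 18.3% lower (28.3% in all). The Hand2 call was lost when any of these 4 arrays was left out (adjusted p = 0.062 to 0.12, limma). Gata5 was -1.05 without LacZ D14 replicate 2, and its call was lost with the compared groups alone (adjusted p = 0.053, limma). Myocd had levels of -0.26 and -0.49 in iCM, against -1.05 and -1.10 in LacZ D14, and was not called (0.69 ± 0.42).

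**Figure D2:**
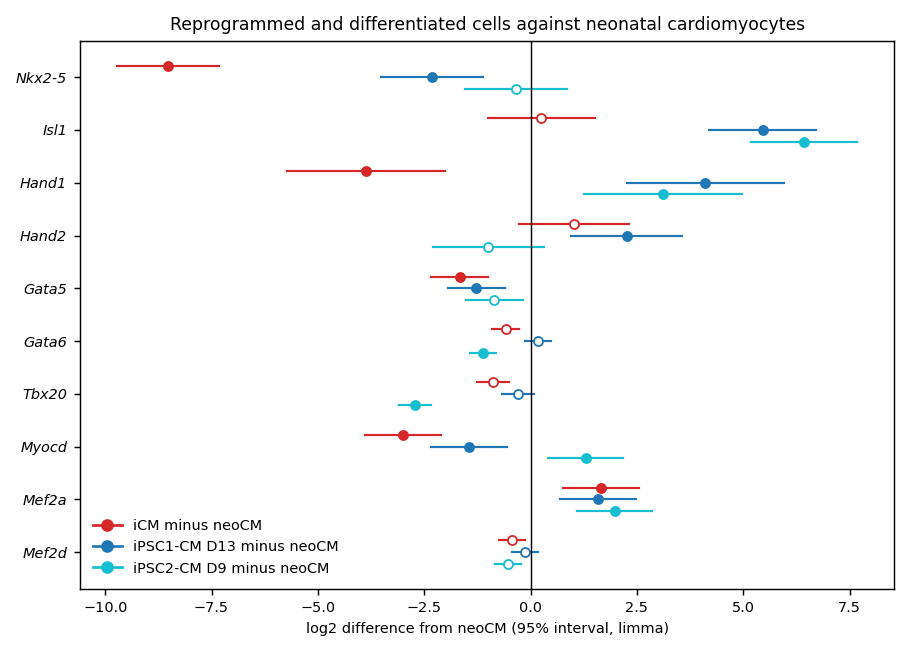
Log2 difference from neoCM for each factor in iCM, iPSC1-CM D13 and iPSC2-CM D9, with 95% limma intervals (2 arrays a group); filled points were called and open points were not. Nkx2-5 lies at -8.53 in iCM, -2.32 in iPSC1-CM D13 and -0.34 in iPSC2-CM D9.

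Cardiomyocytes from iPSC expressed Nkx2-5, Hand1 and Isl1 at levels well above background on every array. In iPSC1-CM D13, 4 members were higher and 3 were lower than in neoCM (19% of all genes were called higher and 17.9% lower, 37% in all). In iPSC2-CM D9, 4 were higher and 2 were lower (21.6% of all genes were called higher and 19.8% lower, 41.4% in all). Isl1 and Hand1 were higher than in neoCM in both lines, as was Mef2a by its brightest probe.

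Isl1 showed the largest of these rises. On the arrays of iPSC1-CM D13 it stood at 1.09 and 1.28, on those of iPSC2-CM D9 at 2.61 and 1.69, and on those of neoCM at -4.28 and -4.27, which is 44-fold and 86.1-fold. Hand1 had 2.03 and 2.32 with the first line and 0.89 and 1.47 with the second (iPSC2-CM D9), against neoCM values of -1.74 and -2.13 (4.11 ± 0.88 and 3.12 ± 0.88). Next in order came iPSC2-CM D29, with 0.05 and 0.14 for Hand1 and -2.0 and 0.33 for Isl1.

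Nkx2-5 was lower in the first line, at 2.54 and 2.51 in iPSC1-CM D13, against 4.94 and 4.75 in neoCM (-2.32 ± 0.57, adjusted p = 0.0018, limma). In iPSC2-CM D9 it lay at 4.40 and 4.6 and differed from neoCM by -0.34 (95% interval -1.54 to 0.85). Myocd went opposite ways: 1.21 and 1.15 in iPSC1-CM D13, below neoCM (-1.45 ± 0.42), and 4.14 and 3.70 in iPSC2-CM D9, above neoCM (1.29 ± 0.42). The second of these calls was lost without neoCM replicate 2 (1.18, adjusted p = 0.070, limma) and without iPSC2-CM D9 replicate 1 (1.07, adjusted p = 0.094, limma).

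The lines were set against each other directly, with all arrays on 1 slide. In this comparison 5 of 10 members were called, where 11.9% of all genes were called higher and 9.44% lower (21.4% in all). Hand2 (3.25 ± 0.62), Tbx20 (2.42 ± 0.18) and Gata6 (1.30 ± 0.15) were higher in iPSC1-CM D13, and Myocd (-2.74 ± 0.42) and Nkx2-5 (-1.98 ± 0.57) were lower. The Nkx2-5 call was lost without iPSC2-CM D9 replicate 2 (adjusted p = 0.060, limma). Line and day of collection, 13 and 9, differ together in this comparison and cannot be told apart.

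Tbx20 gave the clearest split. Its levels were 3.85 and 3.67 in iPSC1-CM D13, against 1.49 and 1.19 in iPSC2-CM D9, and the second line stayed low on day 29 (1.07 and 0.92). Hand2 had levels of 4.08 and 4.42 in iPSC1-CM D13, against 1.25 and 0.75 in iPSC2-CM D9. The fibroblast markers moved with these genes: 10 of 10 were higher in iPSC1-CM D13, with medians of 3.79 and 3.84, against -2.17 and -2.63 in iPSC2-CM D9. On the neoCF arrays Tbx20 was at 3.52 and 3.93, near iPSC1-CM D13, and Hand2 at 1.18 and 0.79, near iPSC2-CM D9. The iPSC2-CM D29 arrays had fibroblast medians of 4.03 and -2.28. On them Tbx20 was 1.07 and 0.92, Hand2 2.34 and -1.34, and Gata6 3.21 and 2.59. The part of fibroblast-like cells in the Tbx20, Hand2 and Gata6 differences was not tested.

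In the second line 5 of 10 members were lower on day 29 than on day 9 and none was higher (9.57% of all genes were called lower and 14.7% higher, 24.3% in all). Isl1 (-2.99 ± 0.60), Myocd (-2.87 ± 0.42), Nkx2-5 (-2.48 ± 0.57), Gata5 (-1.19 ± 0.32) and, by its brightest probe only, Mef2a (-1.16 ± 0.42) were the 5. The D29 arrays disagree for all but 1 of them. Nkx2-5 had levels of 0.86 and 3.18 in iPSC2-CM D29, against 4.40 and 4.6 in iPSC2-CM D9, and Myocd had levels of -0.09 and 2.20, against 4.14 and 3.70. Gata5 was the exception, at -1.40 and -1.28 in iPSC2-CM D29, against -0.77 and 0.48 in iPSC2-CM D9. With only the compared groups in the fit, none of the 5 was called.

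Set against the mean of iPSC1-CM D13 and iPSC2-CM D9, iCM had 4 of 10 members lower and none higher, where 26.2% of all genes were called lower and 20.6% higher (46.8% in all). Hand1 (-7.48 ± 0.77), Nkx2-5 (-7.20 ± 0.49), Isl1 (-5.69 ± 0.52) and Myocd (-2.93 ± 0.37) were the 4. Every iCM array lay below every array of these iPSC-derived groups for each of them. Gata6 differed by -0.12 (95% interval -0.39 to 0.14) and Hand2 by 0.38 (-0.74 to 1.5), although for both genes the iCM arrays lay between the 2 lines.

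During the first 14 days after infection, Myocd was the member that rose with MGT. Its levels in MGT cultures were -0.68 and -0.81 on day 3, -0.16 and -0.23 on day 5, 0.52 and 0.37 on day 7, 0.31 and 0.21 on day 10 and -0.02 and -0.38 on day 14. In LacZ cultures they were -2.11 and -1.96 on day 3, -2.04 and -1.97 on day 5, -1.96 and -1.96 on day 7, -0.82 and -1.11 on day 10 and -1.05 and -1.10 on day 14. Both MGT arrays lay above both LacZ arrays on every day, and all lay above CF D0 (-2.75 and -3.57).

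The Myocd difference passed the test on day 5 (1.81 ± 0.42, adjusted p = 0.0055, limma) and day 7 (2.40 ± 0.42, adjusted p = 3.9e-04, limma), as 1 of 10 members each time. On day 5, 4.91% of all genes were called higher and 3.33% lower (8.25% in all), and on day 7, 5.31% and 3.43% (8.74% in all). It was 1.29 ± 0.42 on day 3 (adjusted p = 0.072, limma), 1.22 ± 0.42 on day 10 (adjusted p = 0.0595, limma) and 0.87 ± 0.42 on day 14 (adjusted p = 0.15, limma). Leaving the iPSC2-CM D29 arrays out of the fit, on which Myocd was -0.09 and 2.20, made days 3 and 10 pass as well (adjusted p = 1.1e-04 and 1.2e-04, limma). The change of the MGT effect between days 3 and 10 was -0.06 ± 0.60 and was not called for Myocd or for any other member, where 1.38% of all genes were called higher and 0.592% lower (1.97% in all). In LacZ cultures on day 14, 2 members were higher than in CF D0 and 2 were lower (15.7% of all genes were called higher and 11.9% lower, 27.6% in all). Myocd rose by 2.09 ± 0.42 in that comparison (adjusted p = 4.3e-04, limma), with Gata5 (1.38 ± 0.32) also higher and Hand1 (-2.25 ± 0.88) and Mef2d (-1.13 ± 0.15) lower. Without LacZ D14 replicate 1 the Hand1 difference was 0.18, so that its direction rests on that array, and without either CF D0 array its call was lost (adjusted p = 0.11 and 0.14, limma). Without LacZ D14 replicate 2 Gata5 was no longer called (0.82, adjusted p = 0.056, limma).

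Markers of other cells differed in the same comparison. Macrophage markers were higher in LacZ D14 for 5 of 6 genes, with median levels of 4.30 and 4.72 in LacZ D14, against 0.038 and -0.017 in CF D0. Smooth muscle and pericyte markers were higher for 3 of 6 and lower for 1, while cardiomyocyte markers were lower for 6 of 8 and endothelial markers for 4 of 6, with 1 higher in each list. Their part in the Myocd, Gata5, Hand1 and Mef2d differences was not tested.

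**Figure D3:**
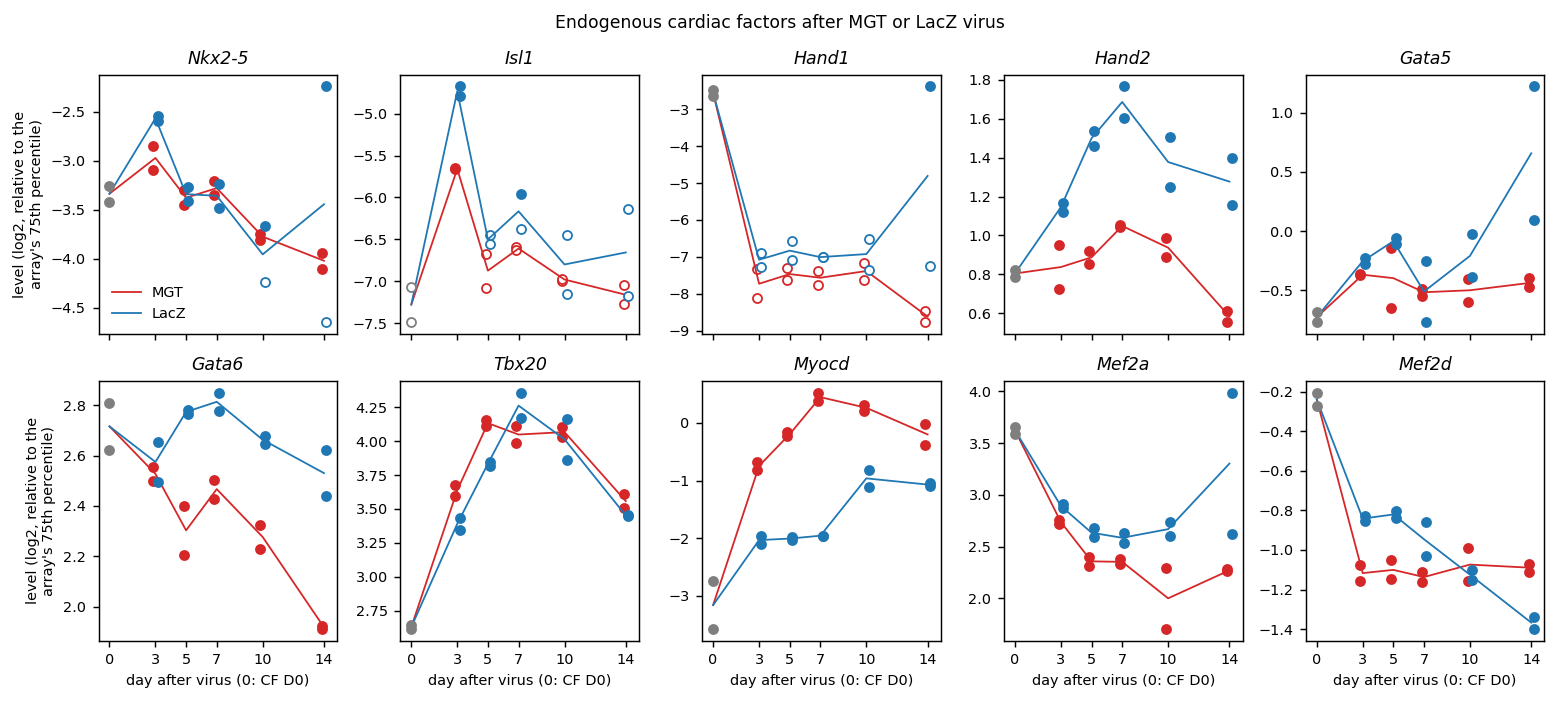
Levels of the 10 factors over the time course (log2, relative to the array's 75th percentile, with an own scale for each gene) against days after virus, with day-0 fibroblasts at 0. Points are arrays, open points are not well above background, and lines join means of 2. Myocd is higher on both MGT arrays than on both LacZ arrays on every day, whereas Nkx2-5 overlaps or lies lower with MGT.

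The other 9 members were not called higher with MGT on any day. No member was called on day 3, when 3.18% of all genes were called higher and 1.86% lower (5.04% in all), or on day 10, when 5.24% were higher and 3.38% lower (8.63% in all). At an unadjusted p under 0.05, limma gave 1 member on day 3, Myocd, and 2 on day 10, Myocd and Gata6. Of all 19413 genes, 3509 reached that p on day 3 and 4946 on day 10. The member counts were not above these shares. Nkx2-5 had levels of -2.85 and -3.10 in MGT cultures on day 3, against -2.54 and -2.60 in LacZ cultures. On day 7 it had levels of -3.21 and -3.35 in MGT cultures, against -3.48 and -3.24 in LacZ cultures, a difference of 0.08 (95% interval -1.12 to 1.27). By day 14 it lay at -3.94 and -4.10 in MGT cultures, against -2.24 and -4.65 in LacZ cultures, of which only the first was well above background. Its MGT levels on all 5 days were below those of neoCF.

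Hand1 and Isl1 were close to background in both arms. Hand1 was not well above background on any MGT array, and on 1 of 10 LacZ arrays. Isl1 was above it on both arrays of each arm on day 3, at -5.65 and -5.67 in MGT cultures, against -4.68 and -4.80 in LacZ cultures, and after that on 1 LacZ array only. No rise could be read at this brightness.

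Gata6 and Hand2 were not called between MGT and LacZ cultures on any day. Gata6 had levels of 2.21 and 2.40 in MGT cultures on day 5, against 2.77 and 2.78 in LacZ cultures, and 1.91 and 1.92 on day 14, against 2.62 and 2.44. Both differences passed the adjusted p (0.037 and 0.0045, limma) but were under 2-fold (-0.47 ± 0.15 and -0.61 ± 0.15). Hand2 was 0.55 and 0.61 in MGT cultures on day 14, against 1.40 and 1.16 in LacZ cultures, which was not called (-0.69 ± 0.62). In iCM at 4 weeks, made with the same factors, Gata6 was at 4.12 and 4.08 and Hand2 at 2.99 and 3.02, above every MGT array for both genes.

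On day 14 Gata5 (-1.09 ± 0.32) and Hand1 (at least 3.62-fold) were called lower in MGT cultures, 2 of 10 members, where 7.36% of all genes were called lower and 5.84% higher (13.2% in all). Both calls rest on the dimmest array. Gata5 had levels of -0.40 and -0.48 in MGT cultures, against 0.09 and 1.22 in LacZ cultures, and Hand1 was not well above background in MGT cultures or on the first LacZ array and had -2.38 on the second. Without that second array the difference was -0.53 for Gata5 (adjusted p = 0.34, limma) and -1.38 for Hand1 (adjusted p = 0.081, limma), while Nkx2-5 was then called lower (-1.78, adjusted p = 0.029, limma). The arms sat on different slides on this day, so slide and virus cannot be told apart.

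Gata5 and Mef2a, the members whose probes matched the most promoter windows, were both higher on the dimmer array of the pair in 6 of 17 groups and both lower on it in 4, iPSC2-CM D29 among them, and went opposite ways in 7. On LacZ D14 replicate 2 Gata5 was 1.22 and Mef2a 3.99, against 0.09 and 2.62 on replicate 1. On iPSC2-CM D9 replicate 2, whose 75th percentile of 824 was the second lowest, Gata5 was 0.48 and Mef2a 3.66, against -0.77 and 2.87 on replicate 1. Whether repeated sequence has a part in these values was not tested.

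Among the delivered factors Mef2c was the one called higher with MGT on every day. Whether its probe reads the viral transcript, the cell's own or both was not tested. Mef2c had levels of 2.84 and 2.95 in MGT cultures on day 3, against -3.89 and -3.88 in LacZ cultures. By day 14 Mef2c had fallen to 0.06 and -0.06 in MGT cultures, against -2.30 and -2.22 in LacZ cultures, and in iCM it was -1.08 and -1.46. Myocd in MGT cultures was highest on day 7, when Mef2c was 0.84 and 0.74.

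Cardiac genes that these factors are known to regulate rose with MGT, while Myocd was the only member called higher. Gata5, Gata6, Hand2, Tbx20, Mef2a and Mef2d were well above background on every array of both arms. Whether the target genes depend on the members was not tested. Of 26 such target genes, 13 were higher in MGT than in LacZ cultures on day 3, 20 on day 5 and 21 on each of days 7, 10 and 14, with median differences of 1.53, 3.73, 3.68, 4.43 and 4.97 on the log2 scale. None was lower. Myl7, the atrial light chain, had levels of 6.92 and 6.83 in MGT cultures on day 14, against -4.04 and -4.44 in LacZ cultures (11.12 log2 units). The median level of the 26 genes was 3.00 and 2.77 in MGT cultures on day 14, above the 2.30 and 2.35 of iPSC1-CM D13, where Nkx2-5 was 2.54 and 2.51. In MGT cultures on day 14 Nkx2-5 was -3.94 and -4.10.

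**Figure D4:**
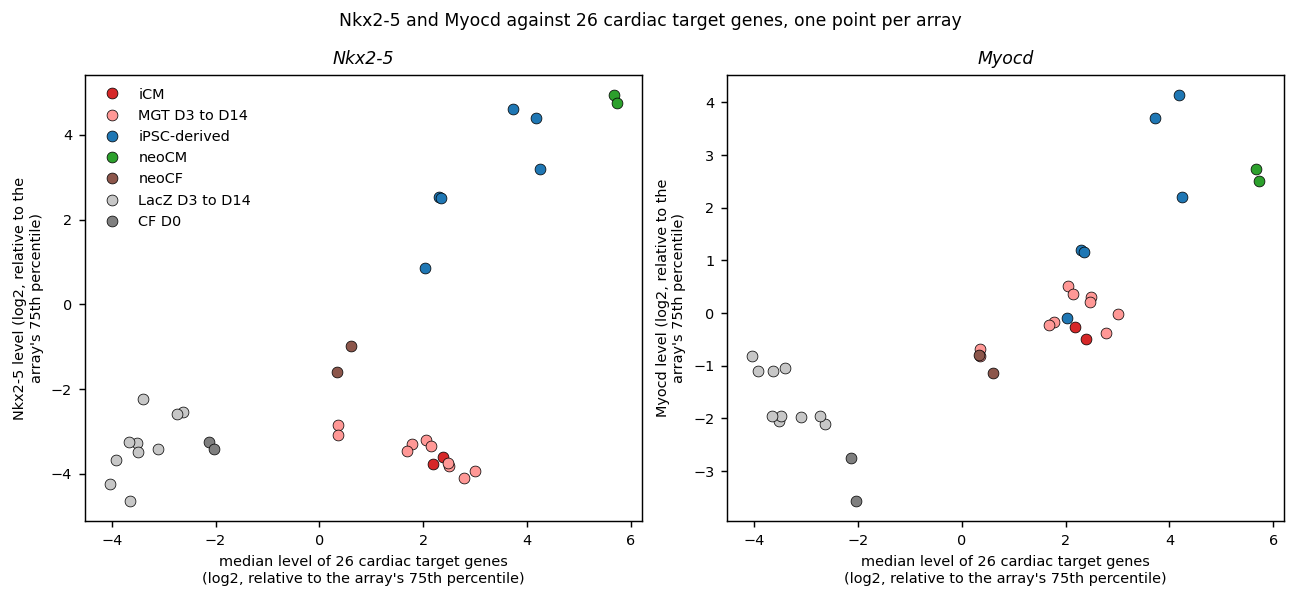
Level of Nkx2-5 (left) and Myocd (right) on each of the 34 arrays against the median level of 26 cardiac target genes (log2, relative to the array's 75th percentile). MGT and iCM arrays reach target medians of 0.35 to 3.00 with Nkx2-5 at or below -2.85, while iPSC-derived arrays with target medians of 2.03 to 4.24 have Nkx2-5 at 0.86 or above.

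The target genes were still short of neoCM at 4 weeks. In iCM 20 of 26 were lower than in neoCM and none was higher, with a median difference of -2.61 (20.9% of all genes were called lower and 18% higher). Ckm (-12.66 ± 0.42), muscle creatine kinase, and Myl2 (-11.87 ± 0.49), the ventricular light chain, had the largest differences. In iPSC1-CM D13 21 of 26 were lower (17.9% of all genes). In iPSC2-CM D9 11 were lower and 1 was higher (19.8% and 21.6% of all genes).

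Smooth muscle genes, which Myocd is known to activate in other cells, gave no single direction as a list on day 7. Of 12 such genes 1 was higher in MGT than in LacZ cultures and none was lower, with a median difference of -0.36. Of all genes 5.31% were called higher and 3.43% lower, and with 12 genes at these shares nothing is read from the count. The median level of the 12 genes went the other way, at 1.97 and 1.91 in MGT cultures, against 0.95 and 1.01 in LacZ cultures. The gene called was Des (5.20 ± 0.51), the intermediate filament desmin, which cardiac muscle also uses and which the cardiac list holds as well.

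Tbx20 was read by 3 probes, which agreed on the split between the iPSC lines but not on iCM, nor on iPSC1-CM D13 against neoCM (-0.30 by probe 1, not called, and -1.17 and -1.35 by probes 2 and 3, called lower). Between neoCM and neoCF probes 1 and 3 gave 0.33 and 0.35 and probe 2 gave -0.60, none of them called. The brightest probe, used above, gave 3.39 and 2.95 in iCM, against 3.52 and 3.93 in neoCF (-0.55 ± 0.18, not called). Probe 2 gave 0.29 and 0.04 in iCM, against 1.97 and 2.94 in neoCF (-2.29 ± 0.19), and probe 3 gave -0.11 and -0.13 in iCM, against 0.75 and 1.63 in neoCF (-1.31 ± 0.26). Against neoCM, probes 2 and 3 were lower in iCM by more than 2-fold (-1.70 and -1.66), and probe 1 by -0.88. With the mean of the 3 probes Tbx20 was called lower in iCM than in neoCF (-1.38) and than in neoCM (-1.41). Their mm9 positions are printed above, and which transcripts each probe reads was not analysed here.

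**Figure D5:**
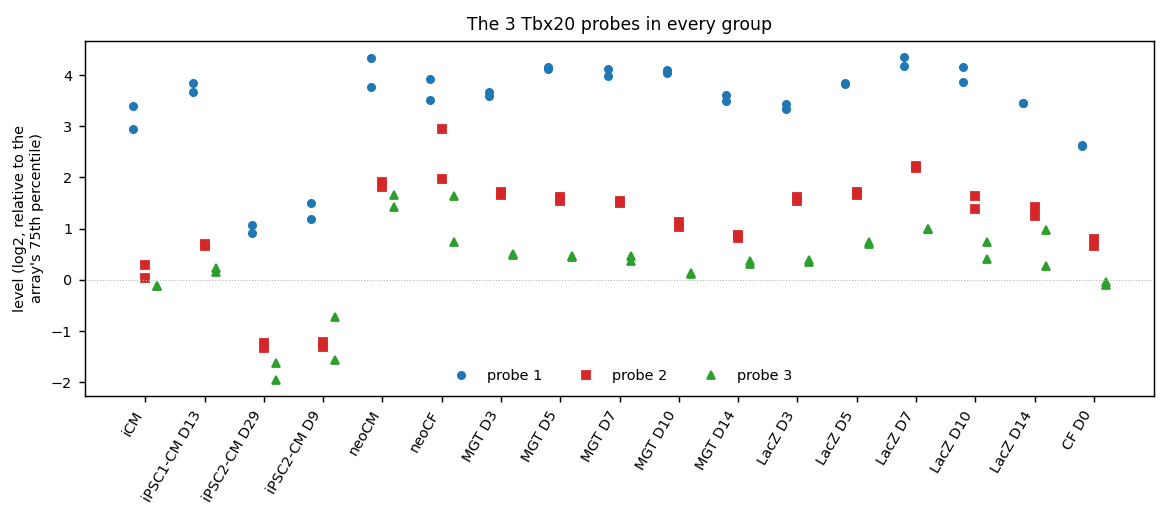
Levels of the 3 Tbx20 probes on the 2 arrays of each group (log2, relative to the array's 75th percentile). All 3 are lowest in the iPSC2-CM groups, and in iCM probes 2 and 3 lie below every neoCM and neoCF array, while probe 1 lies at 2.95 and 3.39 beside neoCF at 3.52 and 3.93.

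The 2 Mef2a probes disagreed in direction between iCM and neoCM. Mef2a, a ubiquitous MEF2 factor of muscle, was higher in iCM than in neoCM by probe 1 (1.65 ± 0.42, called) and lower by probe 2 (-0.80 ± 0.24, not called), and the mean of both was not called (0.43, adjusted p = 0.23, limma). In iPSC2-CM D9 probe 1 was 1.98 above neoCM and probe 2 was 0.14 above it. In iPSC1-CM D13 both were above neoCM (1.58 ± 0.42, called, and 0.87 ± 0.24, under 2-fold). No direction is therefore given for Mef2a between iCM and neoCM. Calls differed in other comparisons too. In iCM, probe 2 was called lower than in CF D0 (-1.71 ± 0.24) and than in the iPSC-derived cells (-1.31 ± 0.21). Probe 1 was called in neither (-0.69 ± 0.42 and -0.13 ± 0.37). In neoCM against CF D0 probe 1 was called (-2.34 ± 0.42) and probe 2 was not (-0.91 ± 0.24). The same held for iPSC2-CM D29 against iPSC2-CM D9 (-1.16 ± 0.42 by probe 1, -0.09 ± 0.24 by probe 2).

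Mef2d, the MEF2 factor that also acts in skeletal muscle and neurons, varied least of the 10 by its brightest probe, from -0.24 in CF D0 to -1.50 in neoCF. It was called only in LacZ D14 against CF D0 (-1.13 ± 0.15). Its second probe was called lower in iCM than in neoCM (-1.02 ± 0.32) and higher in neoCM than in neoCF (1.37 ± 0.32), where the brighter probe gave -0.43 and 0.76. In those 2 comparisons the probes shared a direction but not a call, and in neoCM against CF D0 they had opposite signs (-0.50 for the brighter and 0.58 for the other, neither called), as they did between the iPSC lines (-0.62 for the other probe, 0.40 for the brighter).

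Across all 17 groups the order of levels separated the members by kind. Nkx2-5 was highest in neoCM (mean 4.85) and iPSC2-CM D9 (4.50), which did not differ by more than 2 standard errors, then in iPSC1-CM D13 (2.52) and iPSC2-CM D29 (2.02), and its other 13 group means lay between -1.30 and -4.02. Hand1 and Isl1 were highest in the 3 iPSC-derived groups, and their lowest group means were not well above background, so no span is given for them. Gata6 and Hand2 were highest in iPSC1-CM D13 (4.87 and 4.25), with neoCM and iCM next.

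Other members were highest elsewhere. By its brightest probe Tbx20 had its lowest mean in iPSC2-CM D29 (1.00) and its highest in LacZ D7 (4.26), each within 2 standard errors of the neighbouring group, and Mef2a was highest in CF D0 (3.63). Gata5 spanned 2.04 log2 units and only 1 of the 16 gaps between neighbours in its order exceeded 2 standard errors. For Mef2a no gap did.

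Over the 17 group means, Hand1, Isl1 and Nkx2-5 resembled each other most (Pearson r = 0.85 for Hand1 and Isl1, 0.84 for Hand1 and Nkx2-5, 0.83 for Isl1 and Nkx2-5), followed by Myocd and Nkx2-5 (0.80) and by Gata6 and Hand2 (0.78). Tbx20 ran against Hand1 (r = -0.63). These are descriptions over groups that share fibroblast origin, slides and 3 related iPSC-derived groups. Hand1 was well above background on both arrays in 6 of the 17 groups and Isl1 in 8, so that r for these genes includes many values at background.

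Among all 19413 genes, the closest to Nkx2-5 were C2cd4b (r = 0.97), Cacna1h (0.97) and Idh2 (0.97), the closest to Myocd were Myo18a (0.96), Ccdc113 (0.95) and Slc8a1 (0.95), and the closest to Tbx20 were Tmem254a (0.95), Maged1 (0.94) and Rftn2 (0.94). For Hand1 they were Fscn3 (0.96), Defb45 (0.96) and Ubox5 (0.96), and for Isl1 Zfp369 (0.96), Slc2a3 (0.95) and Hmgcll1 (0.95). Hand2 resembled Lrig3 (0.91), Tbx4 (0.89) and Boc (0.88) most, and Gata6 resembled Sgip1 (0.95), Tspyl2 (0.92) and Hif3a (0.90). Gata5 lay nearest Zfp282 (0.94), Timmdc1 (0.88) and Impg1 (0.87), Mef2a nearest Capza1 (0.96), Eya1 (0.95) and Fnbp1 (0.95), and Mef2d nearest Mcat (0.89), Eif5a (0.88) and Mrps22 (0.88). All r are over 17 group means.

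Promoters are shown for members that moved together or apart. Nkx2-5 and Isl1 were both high in the iPSC-derived cells and low in iCM, Hand2 was higher in iCM than in neoCF, and Mef2a is the only one with a MEF2 motif. RefSeq windows of 300 bases around the gene's start (GRCm38.p6) were found for 7 of 10 members. Gata6, Hand1 and Myocd are named only. Capitals mark the GATA motif (GATAA), the MEF2 motif and the T-box motif (GGTGTG) on either strand.
Nkx2-5 (chr17:26841516-26841815, minus strand): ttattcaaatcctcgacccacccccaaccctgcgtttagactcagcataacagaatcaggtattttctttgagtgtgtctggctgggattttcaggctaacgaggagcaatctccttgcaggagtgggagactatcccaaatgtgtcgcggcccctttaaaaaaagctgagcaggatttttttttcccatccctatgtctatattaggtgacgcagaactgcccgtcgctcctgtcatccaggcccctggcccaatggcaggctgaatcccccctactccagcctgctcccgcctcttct
Isl1 (chr13:116309639-116309938, minus strand): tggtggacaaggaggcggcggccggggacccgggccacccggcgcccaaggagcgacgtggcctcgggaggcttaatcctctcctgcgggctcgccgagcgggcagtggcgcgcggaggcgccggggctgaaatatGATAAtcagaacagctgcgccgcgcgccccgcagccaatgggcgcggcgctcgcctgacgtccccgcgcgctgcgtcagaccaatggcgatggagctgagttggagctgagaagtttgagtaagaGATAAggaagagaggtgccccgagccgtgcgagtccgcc
Hand2 (chr8:57320733-57321032, plus strand): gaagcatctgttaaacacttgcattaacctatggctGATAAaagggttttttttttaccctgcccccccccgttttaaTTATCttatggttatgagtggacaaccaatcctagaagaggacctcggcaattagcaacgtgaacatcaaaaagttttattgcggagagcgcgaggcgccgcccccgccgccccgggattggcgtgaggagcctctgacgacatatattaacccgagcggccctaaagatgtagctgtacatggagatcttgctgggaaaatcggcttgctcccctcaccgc
Mef2a (chr7:67372809-67373108, minus strand): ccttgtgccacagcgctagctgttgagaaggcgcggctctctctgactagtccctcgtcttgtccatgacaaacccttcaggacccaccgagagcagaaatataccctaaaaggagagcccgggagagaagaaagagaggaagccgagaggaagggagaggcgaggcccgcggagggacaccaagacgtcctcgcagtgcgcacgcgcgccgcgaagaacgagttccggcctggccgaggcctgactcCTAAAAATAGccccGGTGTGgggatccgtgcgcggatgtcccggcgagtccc
GATAA occurred in 2 of the 7 windows, those of Hand2 and Isl1 with 2 sites each, and in 25.4% of all 32851 windows. GGTGTG, a T-box motif, and MEF2 each occurred in 1 window, that of Mef2a, against 19% and 3.19% of all. CArG, bound by serum response factor, occurred in 0 of 7 (1.63%), as did TATAAA (13.6%). AAGTG, bound by NKX2 factors, occurred in Hand2 alone (46.4%), where it overlapped a CANNTG, and CANNTG occurred in 4 of 7 (72.3%). A match or its absence describes only these letters in this window.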

How the data were processed

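RNA of 34 samples was read on 1-colour Agilent arrays with 59305 non-control spots. Per the file headers, spot intensities were extracted and background-subtracted by Agilent Feature Extraction 10.7.3.1, and the deposited scanner files hold these intensity values without normalization between arrays. The authors also deposited a table of normalized log2 values for 56083 features, made with limma per the submitters' processing notes, which served as an alternative (r with the values used here 0.982 to 0.996, column medians 7.49 to 7.52; its centring is not stated).

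From the scanner files, log2 of the processed intensity minus the array's 75th percentile was taken, outlier spots were left out, and spots of a probe were averaged. Probes that the scanner software marked well above background throughout 1 or more groups were retained (43381 probes, 25634 with a gene), and the brightest kept probe stood for its gene; 5116 genes had more than 1. Where a probe was not well above background on either array of 1 group, the change is given as a bound against the lowest signal well above background. Genes were named through RefSeq. 1 limma model (limma 3.58.1, R 4.3.3) with 17 group means was fitted to all 34 arrays (17 residual degrees of freedom), and p-values were adjusted over 19413 genes by Benjamini-Hochberg. The procedure was tested on simulated data. Motifs and probes were searched with Python 3.11.15.

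The members and gene lists were chosen with earlier results of these data known. Besides the members, the text names for each list the called genes with the 2 largest changes in each direction, or gives counts only, and for each member the 3 genes with the highest Pearson r over 17 group means among genes without a predicted or clone name.

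Alternatives were quantile normalization, normexp with an offset of 50, the authors' log2 values, no filter, the mean of a gene's probes, the compared groups alone, slide and replicate number as blocks, leaving out the iPSC2-CM D29 arrays, and leaving out each array; a fit without iPSC2-CM D29 and LacZ D14 replicate 2, and a fit of every probe, were added after seeing the data.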

Additional observations from a re-analysis of the deposited data

Results flagged for a closer look

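The test of the difference between the iPSC-derived lines (iPSC1-CM D13 minus iPSC2-CM D9, 2 arrays each, limma over 19413 genes) passed for 5 of 10 members on the log2 scale. Of all genes 21.4% passed. Hand2 was higher in iPSC1-CM D13 by 3.25 (adjusted p = 3.3e-04, limma), Tbx20 by 2.42 (adjusted p = 2.4e-09, limma) and Gata6 by 1.3 (adjusted p = 9.0e-07, limma). Myocd differed by -2.74 (adjusted p = 3.7e-05, limma) and Nkx2-5 by -1.98 (adjusted p = 0.0096, limma), both lower in iPSC1-CM D13. The Nkx2-5 call was lost without iPSC2-CM D9 replicate 2. All 10 fibroblast markers were also higher in iPSC1-CM D13, and their part was not tested. Line and day of collection differ together and cannot be told apart.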

How the results depend on the processing

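Of 2490 recomputed member changes, 2406 kept their side of the threshold, 39 lost a call and 40 gained one. The other 5, called in the main fit or in the alternative, changed sign. Of the 2406, 72 were uncalled changes whose sign differed, such as Isl1 in neoCM against neoCF (0.62, and -0.49 without neoCF replicate 2). With 2 arrays a group, the lone array of a group is assumed to vary like the other groups. Between MGT and LacZ on day 14, the count of members called (2) became 1 with quantile normalization, 1 with normexp and quantile normalization, 0 with the compared groups alone, 1 without iPSC2-CM D29 and the dimmest array, and 1 to 3 when arrays were left out singly. The 5 members called in iPSC2-CM D29 against iPSC2-CM D9 became 0 with the compared groups alone, where no gene of 4709 passed, and 3 to 6 when arrays were left out. The 0 members called on days 3 and 10 became 1, Myocd, on each day with the compared groups alone (adjusted p = 0.0045 and 0.0231, limma), without iPSC2-CM D29 (adjusted p = 1.1e-04 and 1.2e-04), and without that group and the dimmest array, and stayed at 0 when arrays of the compared groups were left out. LacZ D14 against CF D0 gave 4 members, 2 with the compared groups alone and 3 when any array was left out. Leaving out arrays gave 1 to 3 members for iCM against neoCF, 5 to 6 for neoCM against neoCF, 5 to 6 for iCM against neoCM, 5 to 6 for iCM against CF D0, 3 to 5 for iCM against LacZ D14, 7 for neoCM against CF D0 and for iPSC1-CM D13 against neoCM, 5 to 7 for iPSC2-CM D9 against neoCM, 4 to 6 between the lines, 4 for iCM against the iPSC-derived cells, and 1 on days 5 and 7. Of the changes that turned, only Hand1 in LacZ D14 against CF D0 was called in the main fit (-4.68 without LacZ D14 replicate 2, 0.18 without replicate 1). The rest were called only in an alternative. Hand2 in iPSC2-CM D29 against iPSC2-CM D9 was -2.34 without D29 replicate 1 and 1.34 without replicate 2. Hand1 in iCM against LacZ D14 was -3.42 without LacZ D14 replicate 1 and 1.43 without replicate 2. It was 1.43 also without iPSC2-CM D29 and that array. Nkx2-5 in LacZ D14 against CF D0 was 1.09 without iPSC2-CM D29 and the dimmest array. In each of these the arrays left in decide the sign. Hand2 was also called higher in neoCM than in neoCF (adjusted p = 1.9e-05, limma) and than in CF D0 (adjusted p = 1.6e-06, limma) without iPSC2-CM D29. Gata5 in iCM against LacZ D14 lost its call with the compared groups alone (adjusted p = 0.053, limma). Over all genes, 14 of 249 recomputed counts of calls moved by more than 1.5 times. iCM against LacZ D14 gave 3406 with normexp in place of 5492. MGT against LacZ gave 1487 with normexp and 4754 without the filter in place of 2561 on day 14, and 1598 alone, 1505 without iPSC2-CM D29 and 1550 without the dimmest array too in place of 979 on day 3. The change of the MGT effect between days 3 and 10 gave 1035, 1004 and 1091 under those settings, and 235 to 245 under 4 of the single omissions, in place of 382. Same-numbered arrays did not deviate together (r = -0.0656 to 0.175, 2 pairs a comparison), and the fit with a replicate block changed 0 of 180 member changes, with 5 members called in iCM against neoCM and 1 on day 7. The slide as a block where groups shared one left the 5 members called in iCM against neoCM. For members near background (Hand1 well above it on 14 of 34 arrays, Isl1 on 17), signal over background limits what can be read. Other causes were not tested.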

Other observations

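Of 20 tested genes known as partners of the members, 2 were higher in MGT than in LacZ cultures on day 7 and none was lower, where 5.31% of all genes were higher and 3.43% lower. Hopx, a homeodomain cofactor of serum response factor in heart, had levels of 1.34 and 1.57 in MGT cultures on day 7, against -3.60 and -3.68 in LacZ cultures (5.10 ± 0.50). Hdac9, a histone deacetylase that restrains MEF2 proteins, was the other (2.27 ± 0.40). In iCM 5 partners were lower than in neoCM and 1 was higher, where 20.9% of all genes were lower and 18% higher, with Hopx at 0.17 and 0.26 in iCM, against 5.66 and 5.36 in neoCM (-5.30 ± 0.50), and Tbx1, a T-box factor of the second heart field, higher (2.90 ± 0.70).

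Of 9 tested genes of the second heart field, the progenitor pool that Isl1 marks, 4 were higher in iCM than in neoCM and 1, Crabp1, was lower (-3.89 ± 1.29), where 18% of all genes were higher and 20.9% lower, and Isl1 differed by 0.25. Fgf10 had levels of -1.24 and -1.06 in iCM, against -6.98 and -6.90 in neoCM, where it was not well above background on either array. Fibroblasts differed from neoCM in this list too, as 4 genes were lower and 1 higher in neoCM than in neoCF. Against CF D0, 5 were lower and 2 higher in neoCM. Set against neoCF, iCM had 2 genes of the list higher and 2 lower. The counts for iCM were 4 higher and none lower against CF D0, and 1 higher and none lower against LacZ D14. The part of fibroblast-like cells in these differences was not tested. In iPSC1-CM D13 6 of 9 were higher and 1 was lower than in neoCM (19% and 17.9% of all genes), and in iPSC2-CM D9 7 were higher and 1 was lower (21.6% and 19.8%). None was higher in MGT than in LacZ cultures on any of the 5 days, where 3.18% to 5.84% of all genes were. With 9 genes at these shares, nothing is read from that absence. On each of days 7, 10 and 14, 1 gene of the list was lower with MGT (3.43%, 3.38% and 7.36% of all genes). The contractile cultures received FGF10 protein in the medium.

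Relatives of the members from the same families followed no single direction. Of 12 tested, 2 were higher in iCM than in neoCM (Tbx18, 1.43 ± 0.39, and Nkx2-3, 1.14 ± 0.44) and 4 were lower, where 18% of all genes were higher and 20.9% lower. Tbx2 was one of these (-2.85 ± 0.28). Gata1, the GATA factor of red cell precursors, was not well above background in iCM, against levels of -1.58 and -1.75 in neoCM. Of 5 erythroid markers 4 were called lower in iCM too, and the median level of the 5 was -8.17 and -8.05 in iCM, against -2.32 and -2.38 in neoCM. The part of blood cells in the Gata1 difference was not tested.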
